A study of Bos taurus with 6 samples.

Results

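The miR-302/miR-367 cluster is a single transcript that carries 5 microRNAs (miRNAs), miR-302b, miR-302c, miR-302a, miR-302d and miR-367. In mammals it is known as a miRNA signature of embryonic stem cells and of induced pluripotent stem cells. It is switched on by the pluripotency factors OCT4 and SOX2 and shut down as cells commit to a lineage, so differentiated mesenchymal cells are a setting in which it is usually quiet. The miR-302 members share 1 seed, the stretch near the 5′ end that pairs with target mRNAs, and are known to act on cell-cycle inhibitors and on TGF-beta family signalling. A different seed is carried by miR-367, which it shares with miR-25, miR-32, miR-92a, miR-92b and miR-363.

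The members were chosen by name, as the rows of the deposited table for miR-302a to miR-302d and miR-367, with their read counts in the 6 libraries already known. There were 5 such rows among 771 known miRNAs and 2213 rows in all. Because their counts were in view when they were chosen, the members' values are given as a description, with no test. All 5 names matched a RefSeq gene of assembly ARS-UCD2.0, where MIR302B, MIR302C, MIR302A, MIR302D and MIR367 follow each other in that order within the span of LARP7, a gene for a protein that binds the small nuclear RNA 7SK. The table types bta-miR-302d as a mature miRNA and the other 4 as hairpins, without saying what this means for the counting. The 4 miR-302 sequences are close copies, so reads that fit more than 1 of them could have been divided between the rows.

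The study compared cultured preadipocytes of Holstein cattle, the committed precursors of fat cells, with adipocytes, the same kind of culture after induction by insulin, dexamethasone, rosiglitazone and IBMX. Each group held 3 libraries of small RNA, from cells at passage 4 to 6 grown in F12/DMEM with serum. Separate animals or cultures are not stated for the replicates, so the spread between them may be technical. The libraries held 14525284 to 22283754 reads of known and predicted miRNAs. Levels below are counts-per-million (CPM) of the library size scaled by edgeR's TMM factors, so the levels of a library need not add up to its nominal total. At this depth a count of 0 allows a level of up to 0.142 CPM in the deepest library on this scale and 0.244 CPM in the shallowest (3 reads per library). Intervals in brackets are exact 95% intervals and, like these limits, cover counting error only.

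The cluster had only 5 to 27 reads in 5 of the 6 libraries, and most of its reads came from 1 preadipocyte library. Adipocyte replicates 1, 2 and 3 gave 19, 9 and 5 reads of the 5 rows together. From preadipocyte replicates 1, 2 and 3 there were 22, 27 and 373. Preadipocyte replicate 3 therefore supplied 82% of the cluster's 455 reads. Per library the summed level was 0.942, 0.426 and 0.256 CPM in adipocytes and 1.5, 2.2 and 22.8 CPM in preadipocytes. This gave a mean of 0.541 ± 0.357 CPM over adipocytes against 8.83 ± 12.1 CPM over preadipocytes (SD, n = 3 each), and the SD of the preadipocytes exceeded their mean. Without preadipocyte replicate 3 the preadipocyte mean was 1.85 ± 0.492 CPM (n = 2). As reads-per-million of the miRNA total without TMM factors the groups overlapped, since adipocyte replicate 1 stood at 1.264 and preadipocyte replicate 1 at 1.261.

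The level of the cluster in preadipocyte replicate 3 (20.5 to 25.2 CPM) was 10.4 times that of the next library, preadipocyte replicate 2 (7.01 to 15.9 times). Even there it made up 0.00167% of the miRNA reads. For scale, the let-7 rows, a family that rises as stem cells differentiate, held 3147 reads for each read of the cluster in that library and 38098 to 288513 in the other 5.

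**Figure D1:**
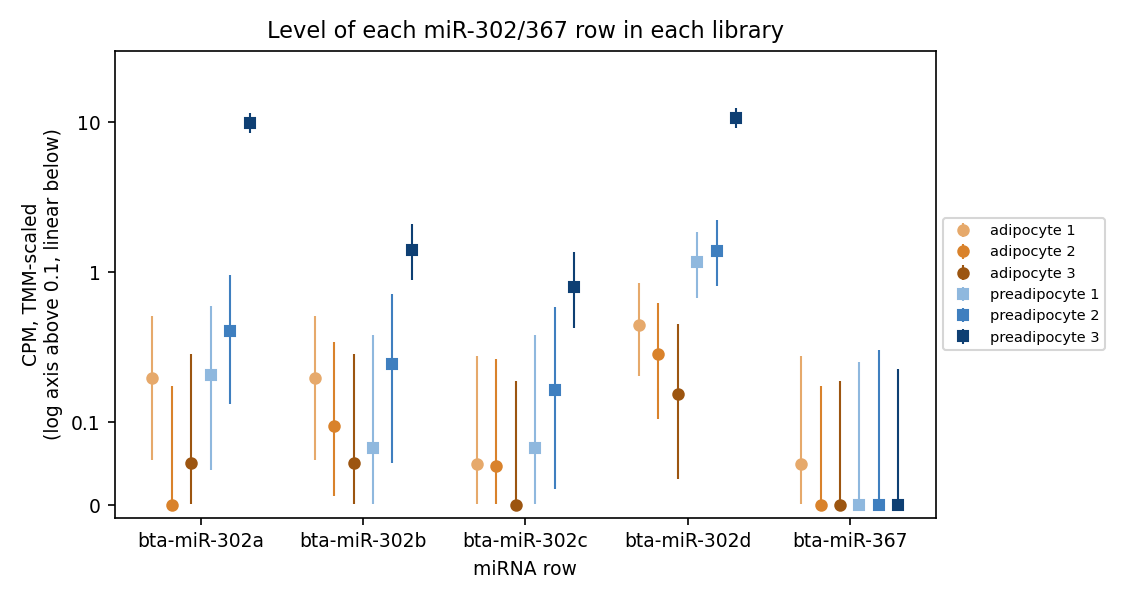
The level of each of the 5 rows is plotted for each of the 6 libraries in TMM-scaled CPM, on an axis that is logarithmic above 0.1 and linear below, with bars for exact 95% counting intervals; circles are adipocytes and squares preadipocytes. Preadipocyte replicate 3 lies above every other library for the 4 miR-302 rows, at 9.9 CPM for bta-miR-302a and 10.7 CPM for bta-miR-302d, and at 0 for bta-miR-367.

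Within the cluster, bta-miR-302d had the most reads. Its counts were 9, 6 and 3 in adipocyte replicates 1, 2 and 3 and 17, 17 and 175 in preadipocyte replicates 1, 2 and 3. Its levels were 0.153 to 0.446 CPM in adipocytes and 1.16 to 10.7 CPM in preadipocytes. As reads-per-million of the miRNA total without TMM factors, the adipocyte libraries reached at most 0.599. The lowest preadipocyte library stood at 0.975 there. How many of all miRNAs show such a gap was not counted. The only member that passed the filter on low counts was bta-miR-302d, and it did so through its preadipocyte counts. Its log2 difference, adipocytes over preadipocytes, was -3.88, and -2.09 without preadipocyte replicate 3. These values are a description and not a test, since the row was chosen with its counts known. By rank among the known miRNAs bta-miR-302d was 193rd in preadipocyte replicate 3 and 289th to 450th in the other 5 libraries, of which each had reads for 605 to 648 known miRNAs.

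The reads of bta-miR-302a were the most concentrated in 1 library. They numbered 4, 0 and 1 in the adipocyte libraries and 3, 5 and 162 in the preadipocyte libraries, so 92.6% of its 175 reads came from preadipocyte replicate 3. The level there was 9.9 CPM (8.43 to 11.5), against 0.407 CPM (0.132 to 0.95) in preadipocyte replicate 2, the next highest, a ratio of 24.3 (10.2 to 75.9). On this scale adipocyte replicate 1 stood at 0.198 CPM and preadipocyte replicate 1 at 0.205 CPM. As reads-per-million of the miRNA total without TMM factors the groups overlapped, at 0.266 and 0.172 in these libraries. In rank bta-miR-302a moved from 380th or lower in the other 5 libraries to 196th in preadipocyte replicate 3.

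The remaining miR-302 members were sparser and showed the same library on top. The counts of bta-miR-302b were 4, 2 and 1 in adipocytes and 1, 3 and 23 in preadipocytes. Its level in preadipocyte replicate 3 was 1.41 CPM, a ratio of 5.75 to the next library (1.74 to 29.9). For bta-miR-302c the counts were 1, 1 and 0 in adipocytes and 1, 2 and 13 in preadipocytes, with a ratio of 4.88 (1.1 to 44.5). Without TMM factors that ratio was 4.24, and its interval reached below 1 (0.959 to 38.7). Outside preadipocyte replicate 3 no count of either row exceeded 4 reads.

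The last gene of the cluster, bta-miR-367, was practically undetected. It had 1 read in adipocyte replicate 1 and 0 in each of the other 5 libraries. Preadipocyte replicate 3, with 373 reads of the miR-302 rows, had none of miR-367, which allows a share of up to 0.984% of the cluster's reads there (exact interval).

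The make-up of the cluster's reads is given as a description, with intervals that leave out the spread between libraries. Preadipocyte replicate 3 was picked out from these same counts. In that library bta-miR-302a took 43.4% of the reads (38.3% to 48.6%) and bta-miR-302d 46.9% (41.8% to 52.1%). In the other 5 libraries together, with 82 reads, bta-miR-302a took 15.9% (8.72% to 25.6%) and bta-miR-302d 63.4% (52% to 73.8%). Of the reads of these 2 rows alone, bta-miR-302a held 48.1% in preadipocyte replicate 3 (42.6% to 53.6%) and 20% in the others (11.1% to 31.8%). The pooled adipocytes, at 21.7% of 23 reads, and preadipocyte replicates 1 and 2, at 19% of 42 reads, lay close together on this measure, with wide intervals (7.46% to 43.7% and 8.6% to 34.1%). The share of bta-miR-302b was 6.17% in preadipocyte replicate 3 and 13.4% in the others, with intervals that overlapped (3.95% to 9.11% and 6.89% to 22.7%).

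**Figure D2:**
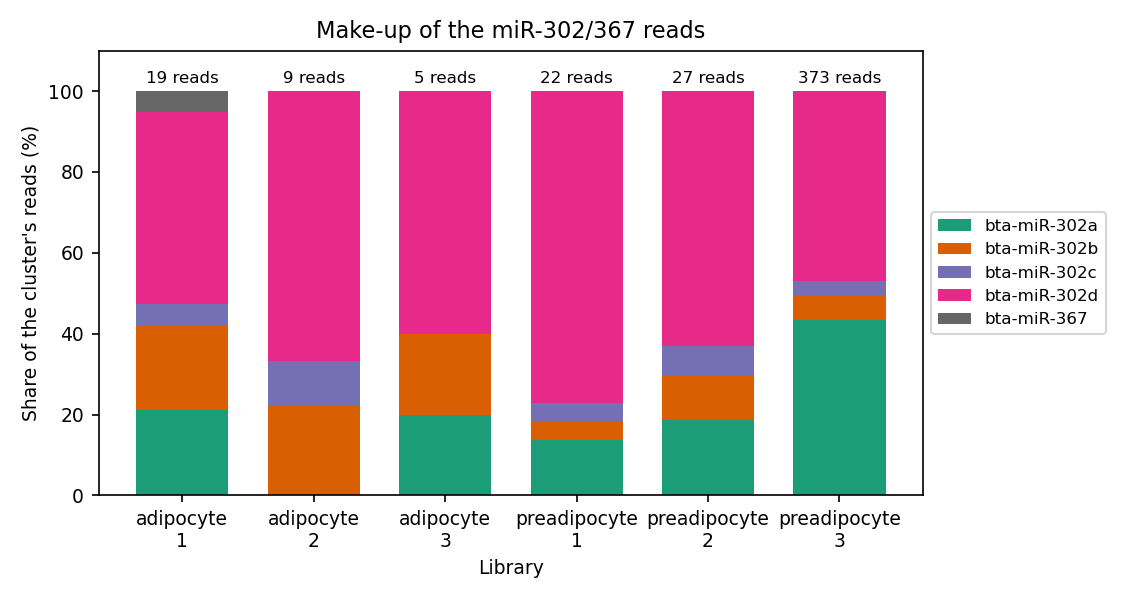
Each bar divides the cluster's reads in 1 library, as a percentage, among its 5 rows, with the number of reads above the bar. The share of bta-miR-302a reaches 43.4% in preadipocyte replicate 3 and at most 21.1% in the other libraries, most of which rest on fewer than 25 reads.

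The table also counts reads by Rfam family, in rows separate from the named miRNAs. The Rfam mir-302 family had counts of 5, 4 and 4 in the 3 adipocyte libraries, and of 5, 3 and 101 in preadipocyte replicates 1, 2 and 3. Preadipocyte replicate 3 thus stood apart there as well, at 3.91 reads-per-million of the table total (3.19 to 4.76), against 0.154 to 0.259 in the other 5 libraries. The Rfam mir-367 family had 1 read, also in preadipocyte replicate 3. Whether these rows share reads with the miRNA rows is not given, and both come from the same RNA.

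Preadipocyte replicate 3 differed from its group in other ways too. Reads by exon, intron, intergenic and repeat feature made up 5.29% of its table, against 18.5% and 18.9% in preadipocyte replicates 1 and 2 and 8.21% to 12% in the adipocytes. Its TMM factor of 0.734 was the smallest of the 6. Of 557 known miRNAs with at least 10 reads in all, 23 (4.13%) stood at least 2-fold above every other library in this one, a rule set after the values were seen. All 4 miR-302 rows were among them, and bta-miR-367 was not eligible. The other libraries had 4 to 17 such miRNAs each. With library totals alone there were 14 (2.51%) in preadipocyte replicate 3, with the same 4 rows among them, and 5 to 21 in the other libraries. On that scale adipocyte replicate 2, with 21, and preadipocyte replicate 2, with 16, had more than preadipocyte replicate 3. None of those in the other libraries were from the cluster on either scale. Whether these features of the library have a part in the cluster's reads was not tested.

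The miRNAs whose levels ran most nearly alongside the cluster were compared by Pearson's r of log2(CPM + 0.5) over the 6 libraries. These r values rest mainly on preadipocyte replicate 3 and are a description. For bta-miR-302a the nearest rows were bta-miR-302c (r = 0.989), bta-miR-302b (0.986) and bta-miR-133b (0.984), a muscle miRNA with 20 reads in all. For bta-miR-302d they were bta-miR-133b (0.991), bta-miR-126-3p (0.983), an endothelial miRNA, and bta-miR-503-5p (0.978), of the cell-cycle restraining cluster of miR-424 and miR-503. Among rows with 60 or more reads, a limit set after the values were seen, the nearest to bta-miR-302a was bta-miR-126-5p (0.967), the other arm of miR-126. By the sum of read differences, the nearest row to bta-miR-302c was again bta-miR-133b, whose counts of 1, 1, 0, 2, 2 and 14 differed from it by 2 reads in all, ahead of bta-miR-135a and bta-miR-363 at 9 reads. The nearest to bta-miR-302b was bta-miR-2285ct, at a distance of 14 reads, ahead of bta-miR-133b and bta-miR-302c at 16. The single read of bta-miR-367 was matched exactly by 16 other known miRNAs, among them bta-miR-10177-5p, bta-miR-10184-3p and bta-miR-12060.

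Markers of other cell types were read in the same libraries to place these levels. After the cluster, the endothelial marker miR-126 had the largest excess of preadipocyte replicate 3 over the other preadipocyte libraries among the 9 lists. Its 3p arm stood at 66.8, 42.2 and 42.8 CPM in adipocytes and 112, 137 and 446 CPM in preadipocytes. Both arms were more than 2-fold above every other library in preadipocyte replicate 3, by 3.25 times for bta-miR-126-3p and 7.06 times for bta-miR-126-5p. Neither arm passed the test between the groups (edgeR BH-adjusted p = 0.0637 and 0.189). The 5 muscle miRNAs with a row, led by bta-miR-1, summed to 36.9 to 41.3 CPM in adipocytes. In preadipocyte replicates 1, 2 and 3 they summed to 29.8, 33.5 and 65 CPM. Without TMM factors preadipocyte replicate 3 was not the highest for them. Its muscle rows held 1063 of 22283754 miRNA reads, a lower share than the 833 of 15035059 in adipocyte replicate 1. Of the 5 rows 1, bta-miR-133b, met the 2-fold rule.

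The markers of blood and epithelium were not highest in preadipocyte replicate 3. The 6 blood miRNAs summed to 3.83 and 4.97 CPM in preadipocyte replicates 1 and 2 and 1.96 CPM in replicate 3, with 0.568 to 1.23 CPM in adipocytes, and bta-miR-451 of red cells led them. The 6 epithelial rows, led by bta-miR-375, summed to 2.39, 2.36 and 1.4 CPM in preadipocytes and 0.869 to 1.09 CPM in adipocytes. Neuronal miRNAs, led by bta-miR-9-5p, were at 6.49, 6.27 and 10.2 CPM in preadipocytes and 4.24 to 5.6 CPM in adipocytes. Without TMM factors the groups overlapped for the blood, epithelial and neuronal lists. In adipocyte replicate 1 these held 24, 18 and 113 of 15035059 miRNA reads. In preadipocyte replicate 3 they held 32, 23 and 167 of 22283754, a lower share for each list. The hepatocyte marker bta-miR-122 had at most 2 reads in any library. Outside preadipocyte replicate 3 the 5 cluster rows, of a pluripotent list of 8 names, were thus at a summed level of the same order as the blood and epithelial markers. In preadipocyte replicate 3 they exceeded both. Any part of such other cells in the cluster's reads was not tested.

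The mesenchymal and differentiation lists were abundant in all 6 libraries. The 10 mesenchymal rows summed to 512804 to 771059 CPM in adipocytes and 961983 to 1140760 CPM in preadipocytes. Most of this was bta-miR-21-5p alone, at 475939 to 724248 CPM in adipocytes and 929062 to 1091780 CPM in preadipocytes. The TMM factors, 1.02 to 1.4 in adipocytes and 0.734 to 0.846 in preadipocytes, widen the gap between the groups on this scale. The 12 rows of differentiation miRNAs that oppose the pluripotent state, let-7, miR-98, miR-145 and miR-34a, were led by bta-let-7i. They summed to 79122 to 95090 CPM in adipocytes and 78412 to 93748 CPM in preadipocytes, where replicate 3 stood at 81991 CPM, within the range of the others. Preadipocyte replicate 3 was 12.3 times the mean of the other preadipocyte libraries for the cluster, 3.61 times for the endothelial list, 1.18 times for the mesenchymal list and 0.952 times for the differentiation list.

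**Figure D3:**
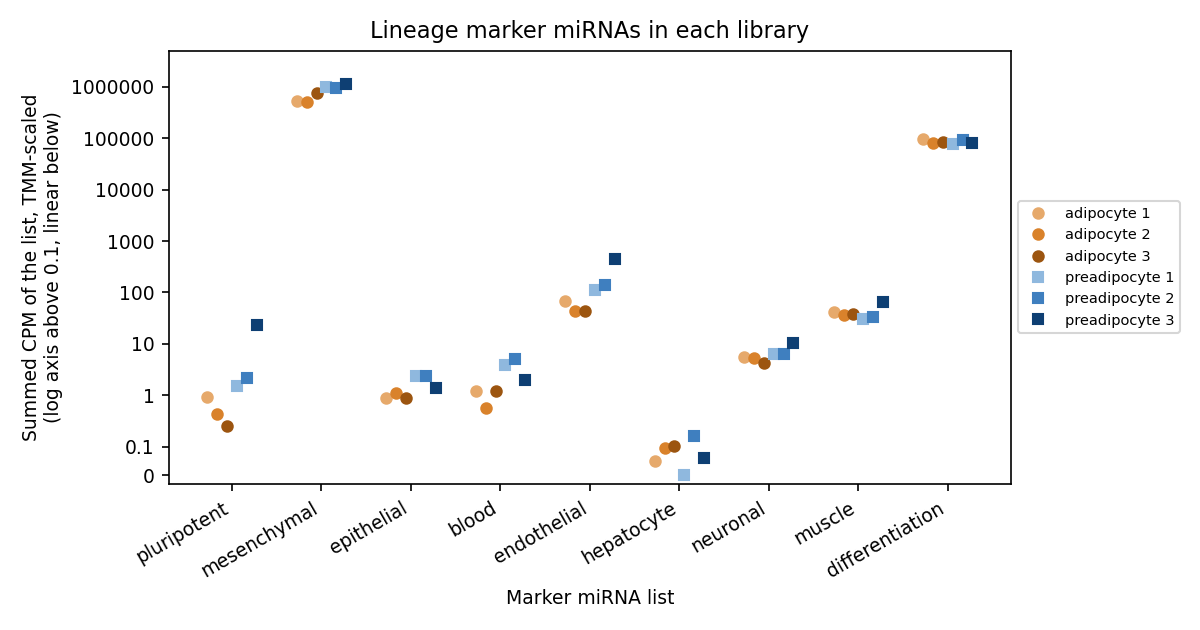
The summed TMM-scaled CPM of each marker list is plotted for each library, on an axis that is logarithmic above 0.1 and linear below; circles are adipocytes and squares preadipocytes. For the pluripotent list, which holds the cluster alone, preadipocyte replicate 3 is at 22.8 CPM and the other libraries at 0.256 to 2.2 CPM, while the mesenchymal and differentiation lists lie far higher in all 6.

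The seeds of the cluster are also carried by miRNAs of other loci, which the choice of members did not use and which could be tested between the groups. These relatives were the 5 that share the seed of miR-367 and 6 of the miR-17 family (miR-17-5p, miR-20a, miR-20b, miR-93, miR-106a and miR-106b), whose seed is that of miR-302 shifted by a base. In edgeR's quasi-likelihood test 26 of 414 miRNAs (6.28%) passed at a threshold of 0.05 after Benjamini-Hochberg (BH) adjustment. In adipocytes 16 of them were higher and 10 lower. Under upper-quartile scaling that split was 15 and 34, under library totals it was 88 and 9, and without preadipocyte replicate 3 there were 148 in all. Of the 11 relatives 9 passed the filter on low counts, and 0 of these 9 passed the test. At an unadjusted edgeR p under 0.05 there were 3 of 9, against 141 of all 414 (34.1%). DESeq2 called 2 of the 8 relatives for which it gave an adjusted p, against 116 of 528 miRNAs (22%). The median log2 difference was -1.04 over the 4 tested relatives of miR-367 and 0.05 over the 5 of miR-302, against -0.02 over all 414.

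The relatives of miR-367 were abundant where miR-367 was not. The most abundant was bta-miR-92a, from the proliferation-linked miR-17-92 and miR-106a-363 clusters, which had 1670, 1608 and 1879 CPM in adipocyte replicates 1, 2 and 3 and 3135, 3722 and 2777 CPM in the preadipocyte ones. As reads-per-million of the miRNA total without TMM factors its groups overlapped. Preadipocyte replicate 3 stood at 2040 there, below the 2241 and 2247 of adipocyte replicates 1 and 2. With a fitted value of -0.90 (SE 0.22) it missed the threshold (edgeR BH-adjusted p = 0.0588). With library totals alone the value was -0.29. It passed with upper-quartile factors (-1.20, edgeR BH-adjusted p = 0.0447), with known miRNAs alone (-0.94, edgeR BH-adjusted p = 0.0477), without preadipocyte replicate 3 (-1.01, edgeR BH-adjusted p = 0.0255) and in DESeq2 (adjusted p = 0.00612). For bta-miR-25, of the miR-106b-25 cluster, the mean level was 820 ± 84 CPM in the 3 adipocyte libraries against 767 ± 160 CPM in the 3 preadipocyte libraries. That amounted to 0.10 log2 units (SE 0.25) with edgeR BH-adjusted p = 0.785, and its sign turned with upper-quartile factors (-0.20). With library totals alone it was 0.76 (edgeR BH-adjusted p = 0.106), where the median over all 414 miRNAs was 0.62. Without TMM factors its groups did not overlap, at 743 to 1242 reads-per-million in adipocytes and 495 to 693 in preadipocytes. The level of bta-miR-92b was 48.3 ± 5.03 and 110 ± 47.9 CPM. It differed by -1.18 (SE 0.40, edgeR BH-adjusted p = 0.0955), and with library totals alone by -0.58 (edgeR BH-adjusted p = 0.392). Without TMM factors its groups overlapped. Preadipocyte replicate 3 stood at 44 reads-per-million of the miRNA total, below the adipocytes (47.7 to 72.4). Without preadipocyte replicate 3 the difference was -1.49, and bta-miR-92b passed (edgeR BH-adjusted p = 0.0204). DESeq2 also called it (adjusted p = 0.0438).

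The large estimate of bta-miR-32 (-5.02, SE 2.48, edgeR BH-adjusted p = 0.19) came from 1 library. It stood at 286 CPM in preadipocyte replicate 2 and at 0.358 to 4.5 CPM in the other 5, and without that library it was 2.30. The same library held 123 of the reads of bta-miR-106a, which had 1 to 5 reads elsewhere. The fifth relative, bta-miR-363, is carried on the miR-106a-363 cluster. It had 1, 3 and 1 reads in adipocytes and 1, 2 and 7 in preadipocytes, was not tested, and was the rarest of the 5.

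Among the relatives of miR-302, the most abundant was bta-miR-93, also of the miR-106b-25 cluster, with 1248 ± 263 CPM in the adipocyte and 1013 ± 111 CPM in the preadipocyte libraries. The fitted value was 0.30 (SE 0.25) with edgeR BH-adjusted p = 0.401, and -0.02 with upper-quartile factors. With library totals alone it was 0.95 (edgeR BH-adjusted p = 0.0653), where the median over all 414 miRNAs was 0.62. Without TMM factors its groups did not overlap, at 1165 to 2164 reads-per-million in adipocytes and 745 to 949 in preadipocytes. For bta-miR-20a, of the miR-17-92 cluster, the means were 94.1 ± 18 and 91 ± 36.3 CPM in the same order, which the fit put at 0.05 (SE 0.40) with edgeR BH-adjusted p = 0.923. It too turned with upper-quartile factors (-0.25), and was 0.73 with library totals alone (edgeR BH-adjusted p = 0.284). The third with an unadjusted p under 0.05, besides miR-92a and miR-92b, was bta-miR-106b, with means of 69.8 ± 36.7 and 27.1 ± 10.7 CPM. Its fitted value was 1.37 (SE 0.57) with edgeR BH-adjusted p = 0.145. With TMM factors the groups overlapped, since adipocyte replicate 3 had 28.2 CPM and the preadipocytes 15 to 35.3 CPM. Without TMM factors they did not, at 28.8 reads-per-million in adipocyte replicate 3 and 12.7 to 26 in the preadipocytes. With library totals alone the fitted value was 2.10 (edgeR BH-adjusted p = 0.0559). Summed before the fit, with TMM factors, the relatives of miR-367 differed by -0.71 (SE 0.20, edgeR BH-adjusted p = 0.0616) and those of miR-302 by 0.25 (SE 0.23, edgeR BH-adjusted p = 0.46), sums that were added after the data were seen.

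As sums, these relatives were of like level in the 3 preadipocyte libraries. The summed level of the relatives of miR-367 was 4077, 4750 and 3726 CPM in preadipocyte replicates 1, 2 and 3, and that of the relatives of miR-302 was 1163, 1229 and 1238 CPM. In that library they held 60981 and 20256 reads, 163 and 54.3 times the 373 reads of the whole miR-302/miR-367 cluster.

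**Figure D4:**
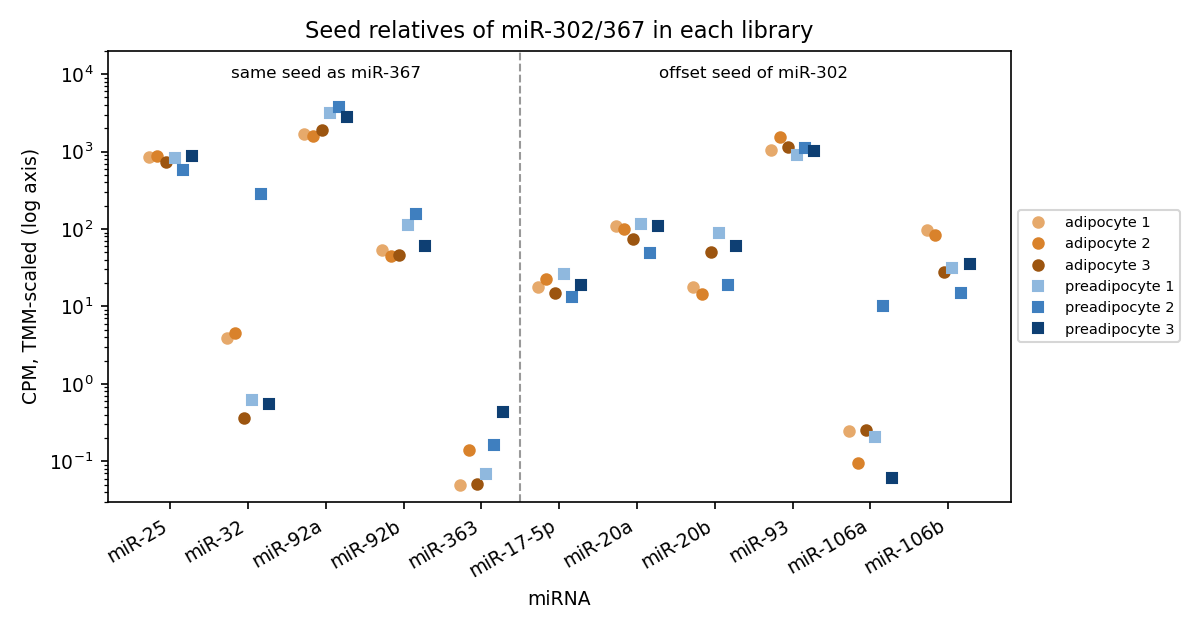
The level of each seed relative is plotted for each library in TMM-scaled CPM on a logarithmic axis; circles are adipocytes and squares preadipocytes, and a dashed line divides the relatives of miR-367 from those of miR-302. On this TMM scale the preadipocytes (2777 to 3722 CPM) lie above the adipocytes (1608 to 1879 CPM) for bta-miR-92a, which preadipocyte replicate 3 does not without TMM factors, and preadipocyte replicate 2 stands alone for bta-miR-32 and bta-miR-106a.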

How the data were processed

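The authors deposited 1 table with a read count and a TPM value per library. Per the labels' protocols the libraries were made from gel-cut 18 to 30 nt RNA of a Trizol extract. The submitters' processing notes name Bowtie2. Its version, the genome build, the miRNA annotation and the treatment of reads with several matches are not given in the sources used here. Per the file headers the count columns hold reads, and their values are whole and unscaled. TPM as the authors deposited it is the counts divided by 1 constant per library, with a count of 0 written as 0.001, and served as an alternative only.

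Counts of known and predicted miRNAs were tested with edgeR 4.0.16 in R 4.3.3 (TMM, filterByExpr, quasi-likelihood, group as the only term, two-sided, BH threshold 0.05). DESeq2 1.42.0 was an alternative. CPM, intervals and plots were made in Python 3.11.15 with SciPy 1.17.1 and matplotlib 3.10.9. On simulated data over 395 miRNAs for this comparison the edgeR step called 60.9% of 4-fold and 91% of 8-fold changes and 2 of 203 unchanged miRNAs. In the simulation no library was made to stand apart, and no imbalance like the real TMM factors (0.734 to 1.4) was built in. These rates may therefore not hold for the real libraries.

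The members, marker lists and seed relatives were chosen with earlier results of these data known. Named are all members, the relatives past the threshold and the 2 most abundant of each seed family, the top row of each marker list and the 3 miRNAs most like each member, by r at 60 or more reads and by read differences below that. The relatives bta-miR-92b, bta-miR-32, bta-miR-106a, bta-miR-106b and bta-miR-363 and the arm bta-miR-126-5p were named after their values were seen.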

Additional observations from a re-analysis of the deposited data

Results flagged for a closer look

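The Rfam mir-302 family lies outside the miRNA rows that were tested. Its row held 101 reads in preadipocyte replicate 3 and 3 to 5 reads in each of the other 5 libraries. With 3 libraries a group, no library was tested as an outlier.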

How the results depend on the processing

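The count of 26 miRNAs past the threshold was 49 with upper-quartile factors, 97 with library totals alone, 116 with DESeq2, 59 with known miRNAs alone and 1 with the replicate block. When each library was left out in turn it ran from 1 to 148, with 148 without preadipocyte replicate 3, 8 without adipocyte replicate 3, 4 without preadipocyte replicate 1 and 1 without each of the others. The median log2 difference over the 414 miRNAs was -0.02, and it shifted to -0.31 under upper-quartile scaling and to 0.62 under library totals. The count of 0 seed relatives was 1 with upper-quartile factors, 1 with known miRNAs alone and 2 with DESeq2, and ran from 0 to 2 when each library was left out, with 2 without preadipocyte replicate 3. The cause was not tested. Same-numbered libraries did not deviate together (r = 0.04, -0.31 and 0.02 for replicates 1, 2 and 3). With 3 libraries a group these values cannot decide whether the numbers pair the samples, and the labels do not say. Of 83 alternatives for 7 relatives, 77 stayed on their side of the threshold and 6, all of bta-miR-92a or bta-miR-92b, passed where the main value had not. The estimate changed sign in 8, none of them called. The cluster's summed level was 0.341 to 0.707 CPM in adipocytes over the alternatives and 1.85 to 12.5 CPM in preadipocytes, the lowest without preadipocyte replicate 3. With 82 reads of the cluster in the other 5 libraries, depth limits every statement on its make-up there.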
